A study of Homo sapiens with 15 samples.

Results

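The genes described here encode mitochondrial ribosomal proteins, chosen as the protein-coding genes whose symbol is MRPL (large subunit) or MRPS (small subunit) followed by a number. The rule found 78 of the 60670 genes in the count table, and pseudogenes were left out. By their known place in the particle, 30 of the 78 are large subunit proteins with a bacterial counterpart and 21 are large subunit proteins classed as specific to mitochondria. The same classes of the small subunit hold 16 and 10. MRPS18A and MRPS18B, paralogs related to bacterial S18, were put in the specific classes. MRPS36 is now placed in the 2-oxoglutarate dehydrogenase complex and not in the ribosome. RNA was sequenced from HT-1080, an established human fibrosarcoma cell line, in 5 groups of 3 libraries labelled as biological replicates. Cycling cells were given the vehicle DMSO with a time label of 6 h. Senescent cells had expressed dominant negative TRF2, a form of a telomere-protecting protein that uncaps telomeres, for 6 days, and were then given DMSO for 6 h, 1 uM GNF-7 for 6 h, DMSO for 24 h, or 1 uM GNF-7 for 24 h. GNF-7 is a multi-kinase inhibitor. All groups come from the same line, which limits the comparison to 1 genetic background, and there is no cycling group with GNF-7 or at 24 h.

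Mitochondria carry their own ribosome, which translates only the few messenger RNAs made from mitochondrial DNA, all of them for core subunits of the respiratory chain and ATP synthase. Every protein of that ribosome is encoded in the nucleus, made in the cytosol and imported, so the particle joins products of both genomes. Promoters of these genes often carry sites for ETS-family factors such as GABP, for YY1 and for NRF1, and MYC is a known activator of many of them.

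Total counts ran from 25991007 to 32323393 per library. TERF2, the gene for TRF2, whose counts cannot separate the cell's own transcript from the introduced form, lay between 55.7 and 62.4 CPM (counts scaled to library size by the trimmed mean of M-values, TMM) in cycling cells and between 128 and 293 in the senescent groups, and the proliferation gene MKI67 lay between 484 and 533 CPM in cycling cells and between 34.3 and 153 in the others. Among mesenchymal markers, VIM, FN1, SPARC, CD44 and LGALS1 ranged from 493 to 4499 CPM, while COL1A2 stayed at or below 0.298. The epithelial, haematopoietic and endothelial markers were at or below 2.27 CPM in every library. The share of counts from mitochondrially encoded genes differed between groups, from 3.75% to 24.1% of a library, and its part in the results below was not tested beyond leaving these genes out of the scaling. With these genes left out of the scaling, the senescence median of the members was -0.52 and that of GNF-7 at 24 h -0.14. In bulk libraries, fewer cells of a kind and less RNA per cell cannot be told apart.

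All 78 members passed the filter on low counts. Their mean level over the 15 libraries ran from 0.425 CPM for MRPL53 to 155 CPM for MRPL3, with a median of 40.3 CPM against 12.5 CPM for all 18563 genes tested. Per length (RPKM, the CPM divided by the kilobases of exon), MRPL47 was highest at 75.9, followed by MRPS34 at 62.7 and MRPL3 at 57.2, and the median member stood at 14.6. In cycling cells the order at the top was different, with MRPL3 first at 106 RPKM, then MRPL47, then MRPS34 at 97.5. At the bottom were MRPL53 at 0.316 RPKM, MRPS24 at 0.709 and MRPL46 at 0.793. Each of these shares exon sequence on the same strand with another gene, so their few counts are uncertain. The neighbours are CCDC142 for MRPL53, URGCP-MRPS24 for MRPS24 and AC013489.1 for MRPL46. Summed over members, the genes took 0.449% ± 0.000887 (SD, n = 3) of all counts in cycling cells and 0.332% ± 0.00152 in senescent cells given DMSO for 6 h. The share was 0.317% ± 0.00524 with GNF-7 for 6 h, 0.321% ± 0.00654 with DMSO for 24 h and 0.292% ± 0.00629 with GNF-7 for 24 h. No senescent library reached the level of a cycling one. With mitochondrially encoded genes left out of the denominator, the means were 0.47%, 0.376%, 0.369%, 0.387% and 0.38% in the same order, so that the senescent groups lay between 0.369% and 0.387%.

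**Figure D1:**
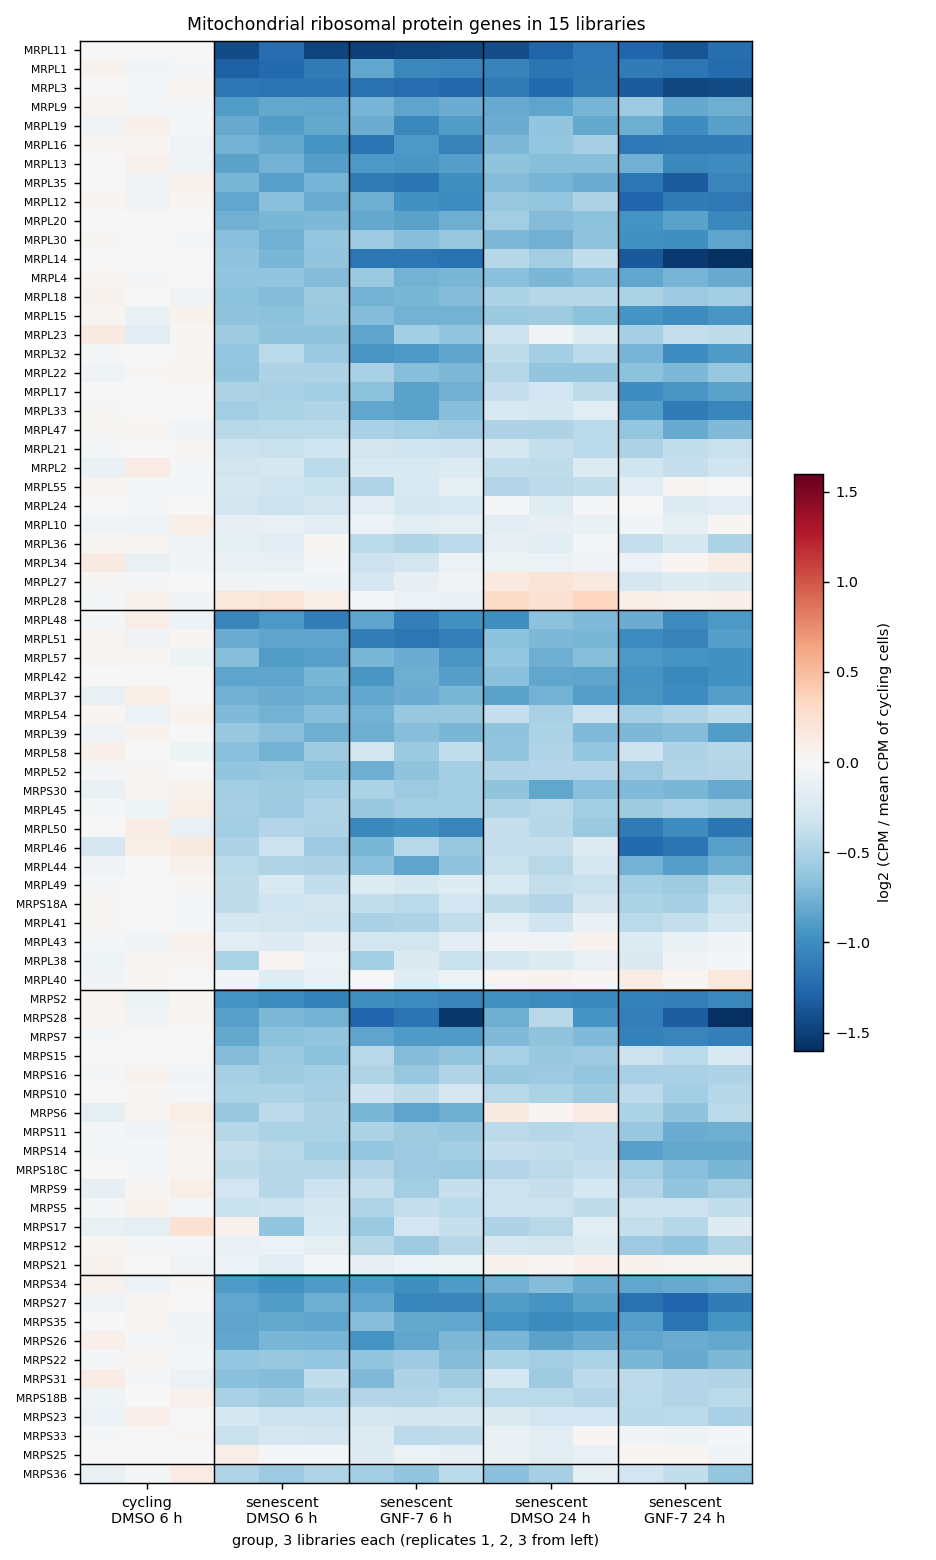
Colour gives the log2 ratio of a library's CPM to the mean CPM of cycling cells, with the 15 libraries in columns. Genes are in rows grouped by subunit and origin (from the top: large subunit with a bacterial counterpart, large subunit classed as specific to mitochondria, small subunit in the same order, MRPS36). MRPL53 and MRPS24, below 5 CPM, are not drawn. Blue covers most rows in all 4 senescent groups, deepest for MRPL11, MRPL1 and MRPL3 from the first senescent group on and for MRPL14 and MRPS28 with GNF-7 at 24 h.

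Promoter windows of 300 bases (250 before and 50 after the start) from RefSeq on GRCh38.p14 were matched by symbol for 69 of the 78 members. The letters CCGGAAG, on either strand, as the core of sites for ETS factors, were found in 42% of members' windows, against 10.3% of all windows and 15.6% of the windows of genes tested here. AAGATGGC, the core of the YY1 element, was in 29% of members' windows against 2.89% of all and 4.43% of those of tested genes. CGCATGCG, the core of the NRF1 element, was in 4.35% against 2.02% and 3.13%, and the E-box CACGTG, to which MYC with MAX binds, in 8.7% against 7.26% and 9.14%. TGATGNAA, the form of the site for ATF4 with its partners, was in 1.45% against 3.62% and 2.24%. Both strands were searched, CCGGAAG and AAGATGGC can share the letters AAG, and a match is a description of the letters, not a site or a cause. The windows below, 170 bases before to 30 after the start, belong to the members with the extreme changes described later: MRPL3, among the largest falls in senescence, MRPL14, MRPL33 and MRPL46, the largest falls with GNF-7 at 24 h, and MRPL55, the largest rise. Capitals mark a match.
MRPL3 promoter, chr3:131502942-131503141, minus strand: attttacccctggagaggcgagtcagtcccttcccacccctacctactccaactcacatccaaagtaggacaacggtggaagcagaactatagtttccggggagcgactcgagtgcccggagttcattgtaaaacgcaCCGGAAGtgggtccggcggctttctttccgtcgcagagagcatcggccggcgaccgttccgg
MRPL14 promoter, chr6:44127279-44127478, minus strand: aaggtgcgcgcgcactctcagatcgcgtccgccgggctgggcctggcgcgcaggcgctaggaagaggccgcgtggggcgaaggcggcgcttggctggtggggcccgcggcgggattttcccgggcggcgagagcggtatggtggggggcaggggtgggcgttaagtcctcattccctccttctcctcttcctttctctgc
MRPL33 promoter, chr2:27771549-27771748, plus strand: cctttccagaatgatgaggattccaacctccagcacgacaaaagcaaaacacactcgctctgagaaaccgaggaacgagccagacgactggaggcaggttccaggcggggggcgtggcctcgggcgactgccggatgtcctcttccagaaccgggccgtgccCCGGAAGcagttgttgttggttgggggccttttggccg
MRPL46 promoter, chr15:88467359-88467558, minus strand: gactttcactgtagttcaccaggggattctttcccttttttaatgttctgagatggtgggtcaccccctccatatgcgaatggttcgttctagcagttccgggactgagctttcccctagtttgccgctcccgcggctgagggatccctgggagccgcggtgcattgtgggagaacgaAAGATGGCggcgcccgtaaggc
MRPL55 promoter, chr1:228109270-228109469, minus strand: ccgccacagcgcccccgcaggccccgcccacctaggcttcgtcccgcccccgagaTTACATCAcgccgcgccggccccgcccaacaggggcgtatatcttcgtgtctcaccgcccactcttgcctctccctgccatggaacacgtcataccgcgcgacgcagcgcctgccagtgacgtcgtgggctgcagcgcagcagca
The capitals are CCGGAAG in MRPL3 and MRPL33, AAGATGGC in MRPL46, and in MRPL55 the opposite strand of TGATGNAA. That window was the only 1 of the 69 with the ATF4 letters. The MRPL14 window held none of the strings.

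Senescent cells were first compared with cycling cells, both in DMSO at 6 h, to ask how the family differs in the senescent state. Most of it was lower: by edgeR's quasi-likelihood test with Benjamini-Hochberg adjustment over all genes, at an adjusted p under 0.05, 66 of 78 members (84.6%) fell and 1 rose, while 34.4% of all genes tested fell and 35.6% rose. The median log2 fold change of the members was -0.54, against 0.06 over all genes. Of the 66, 34 fell by at least 1.5-fold and 5 by at least 2-fold, namely MRPL11, MRPL1, MRPL3, MRPL48 and MRPS2. All classes of the particle took part, with 26 of 30 large subunit proteins of bacterial ancestry lower (median -0.62), 18 of 21 large subunit proteins specific to mitochondria (median -0.53), 12 of 16 small subunit proteins of bacterial ancestry (median -0.47) and 9 of 10 specific ones (median -0.60). MRPS36, the member outside the ribosome, fell by 0.52 on the log2 scale (SE 0.0957, adjusted p 4.16e-06 by edgeR). The direction was kept and the size moved with scaling and filtering: the median was -0.40 with total counts, which moved the members' median by 0.133, and -0.39 with only genes of at least 5 CPM, which moved it by 0.151. The share of members that fell was then 80.8% and 81.6%, against 28.5% and 41.5% of all genes tested.

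MRPL11 (chr11:66435075-66466738, GENCODE 29 on GRCh38), the protein at the base of the stalk where translation factors dock, had the largest fall. It measured 53.5, 53.8 and 54.1 CPM in the cycling libraries and 19.9, 23.1 and 19.4 CPM in the senescent DMSO libraries at 6 h. The groups lay far apart, 2.59-fold lower in senescent cells (log2 -1.37, SE 0.0689, edgeR adjusted p 9.11e-27). On the other strand its exons overlap those of PELI3, which was 0.19 higher. MRPL1 (chr4:77862520-77952790), which forms the mobile stalk beside the tRNA exit site, measured 43.6, 40.7 and 41.4 CPM in cycling and 16.9, 17.7 and 19.4 CPM in senescent cells. It was 2.33-fold lower (log2 -1.22, SE 0.0713, edgeR adjusted p 1.46e-23), with every senescent library below every cycling one. MRPL3 (chr3:131462212-131502983), which reaches towards the peptidyl transferase centre, was the most abundant member in CPM, at 285, 283 and 295 in cycling cells and 129, 127 and 128 in senescent cells. That is 2.25-fold lower (log2 -1.17, SE 0.0395, edgeR adjusted p 1.43e-35), again with a wide gap between the groups. These 3 genes stayed low in every senescent library, whatever the treatment, as the plot of single members by library shows.

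**Figure D2:**
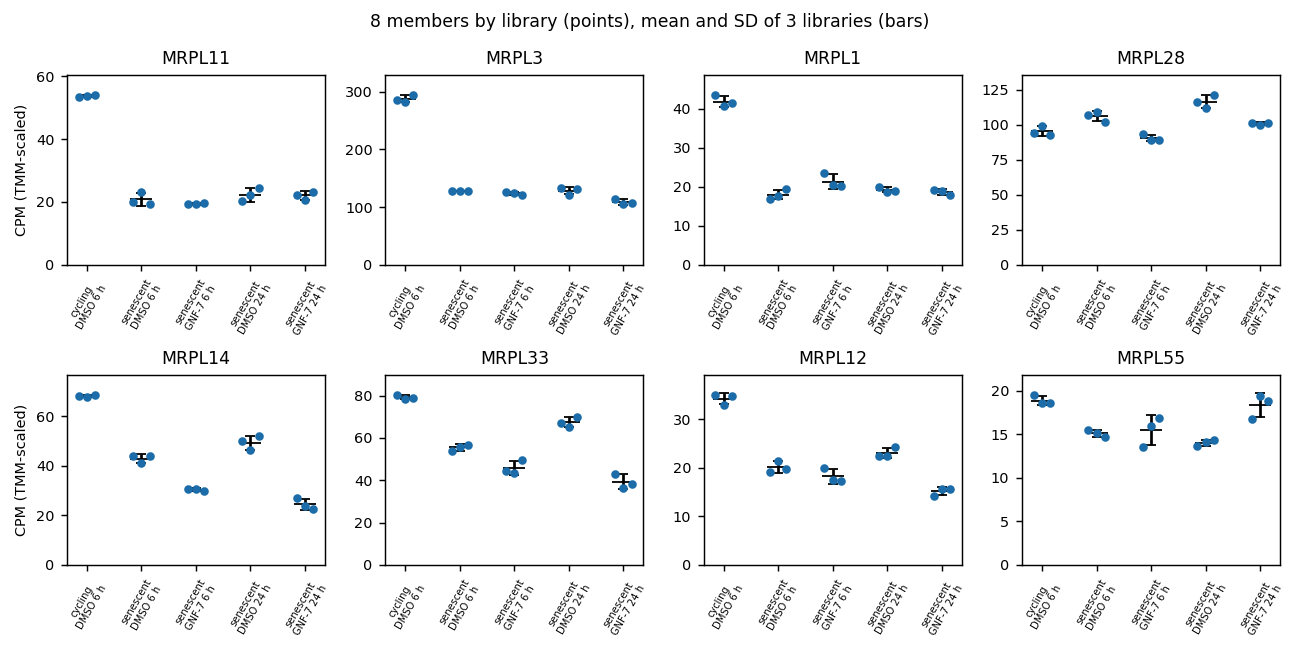
Points are TMM-scaled CPM of 8 members in each of the 15 libraries, and bars are the mean and SD of the 3 libraries of a group, on axes that start at 0. MRPL11, MRPL3 and MRPL1 step down between cycling and senescent cells, MRPL14, MRPL33 and MRPL12 are lowest with GNF-7 at 24 h, and MRPL55 with GNF-7 at 24 h is above its DMSO control.

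Among proteins named for their place in the particle, MRPL12, the L7/L12-type stalk protein that is also known to bind the mitochondrial RNA polymerase, fell from 34.2 ± 1.08 to 20.2 ± 1.17 CPM (SD, n = 3; log2 -0.76, edgeR adjusted p 1.55e-14). Of the exon sequence of MRPL12, 68.2% is shared on the same strand with AC139530.2, which had 3 counts over the 15 libraries. The part of this overlap in the values of MRPL12 was not tested. MRPL10, which holds MRPL12 on the ribosome, changed far less, from 63.7 ± 3.87 to 57.9 ± 0.99 CPM (log2 -0.14, edgeR adjusted p 0.014). The MRPL10 call was lost without cycling replicate 3 (log2 -0.09), with total counts (-0.00), without the filter (-0.12) and with only the groups compared (-0.08), and its value was 0.01 when only genes of at least 5 CPM were kept. Among large subunit proteins specific to mitochondria, MRPL45, which tethers the ribosome to the inner membrane, fell by 0.53 and MRPL41 by 0.30 on the log2 scale (edgeR adjusted p 1.39e-13 and 1.72e-05). On the small subunit, MRPS7 fell by 0.70 and MRPS22, a mitochondria-specific protein, by 0.62 (edgeR adjusted p 8.76e-19 and 2.51e-19). MRPS12, a protein of the decoding centre, was at 41.7 ± 0.736 CPM in cycling and 38.3 ± 0.847 CPM in senescent cells and was not called (log2 -0.12, edgeR adjusted p 0.0584). The 3 paralogs related to bacterial S18 all fell: MRPS18B by 0.53, MRPS18C by 0.44 and MRPS18A, which sits in the large subunit, by 0.34 on the log2 scale.

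The 11 members not called in senescence were MRPL27, MRPL34, MRPL36, MRPL38, MRPL40, MRPL53, MRPS12, MRPS17, MRPS21, MRPS24 and MRPS25. Their log2 values ran from -0.42 for MRPS24 to 0.07 for MRPL53, the members with the fewest counts. MRPS25, well measured, was at 81.8, 81.4 and 81.5 CPM in cycling and 87.5, 80.7 and 80.8 CPM in senescent cells, so the groups overlapped. The single rise was MRPL28 (chr16:366969-371289), a large subunit protein, from 93.9, 99.2 and 92.3 CPM to 107, 109 and 102 CPM (log2 0.15, SE 0.0428, edgeR adjusted p 0.00117). Its exons overlap those of PGAP6 on the same strand, and PGAP6 was itself higher by 0.73 on the log2 scale. Whether the rise of MRPL28 is separate from that neighbour was not tested, and with the 16 members that share same-strand exon sequence left out, 55 of 62 members fell and 0 rose.

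**Figure D3:**
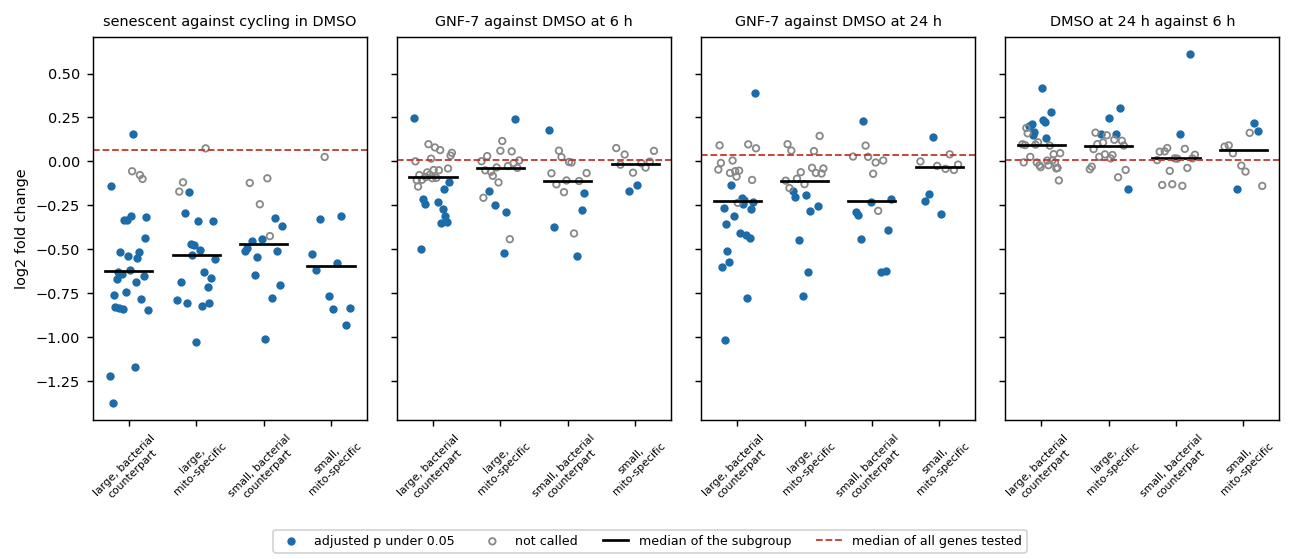
Each point is the log2 fold change of a member, filled where edgeR called it, with classes of the particle side by side in 4 comparisons. Black bars are class medians and the dashed line is the median of all genes tested. In senescence all 4 class medians lie between -0.62 and -0.47, while with GNF-7 at 24 h they lie between -0.23 and -0.03.

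GNF-7 for 6 h was compared with DMSO for 6 h in senescent cells, to ask what the inhibitor does early; this comparison shares its DMSO libraries with the one above. Changes were small. By edgeR, 20 of 78 members (25.6%) fell and 3 rose, against 21.4% and 17.9% of all genes, so the share that fell is near the background. The median was -0.07 (0.01 over all genes), and 0 of the 20 fell by as much as 1.5-fold. With only genes of at least 5 CPM kept, 15 of 76 (19.7%) fell and 6 rose, against 26.8% and 27% of all genes, and the median was -0.01. MRPS28, a small subunit protein, had the largest fall, from 6.62, 7.36 and 7.15 CPM to 5.02, 5.38 and 4.14 CPM (log2 -0.54, SE 0.138, edgeR adjusted p 0.00109). Every treated library lay below every control. Of the exon sequence of MRPS28, 35.8% is shared on the same strand with AC036214.3, which had 10 counts over the 15 libraries. MRPL50, a mitochondria-specific large subunit protein, went from 27.7, 29.2 and 28.8 CPM to 19.8, 20.6 and 19.4 CPM (log2 -0.52, edgeR adjusted p 1.11e-08). MRPL14, at the face that meets the small subunit, went from 43.7, 40.9 and 43.9 CPM to 30.6, 30.6 and 29.7 CPM (log2 -0.50, edgeR adjusted p 1.59e-10).

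MRPS12, which senescence left uncalled, fell here by 0.37 on the log2 scale (edgeR adjusted p 6.01e-07), from 38.4, 39.2 and 37.5 CPM to 30.4, 27.9 and 30.5 CPM. MRPS7 and MRPL41 fell by 0.18 and 0.17 (edgeR adjusted p 0.0051 and 0.021). The MRPS7 call was lost without DMSO 6 h replicate 3 (log2 -0.15), and the MRPL41 call without DMSO 6 h replicate 1 (-0.16), without either of the first 2 GNF-7 6 h replicates (-0.15 and -0.14) and with the filter at 5 CPM (-0.12). The 3 rises were MRPL1 (log2 0.25, edgeR adjusted p 0.00549), MRPL58 (0.24, adjusted p 0.00744), a ribosome-bound peptidyl-tRNA hydrolase that frees stalled chains, and MRPS10 (0.18, adjusted p 0.00208). For MRPL1, GNF-7 replicate 1 stood at 23.4 CPM beside 20.4 and 20.1, against 16.9 to 19.4 CPM in DMSO. Without that library the values of MRPL1 and MRPL58 were 0.17 and 0.17 and neither was called, which left 1 rise. The MRPL1 call was also lost without DMSO 6 h replicate 1 (0.20), and that of MRPL58 without DMSO 6 h replicate 2 (0.19).

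GNF-7 was then compared with DMSO at 24 h. By edgeR, 36 of 78 members (46.2%) fell and 3 rose, against 29.7% and 29.3% of all genes, with a median of -0.13 (0.04 over all genes). The size and the split depended on the filter, which moved the members' median by 0.101: with only genes of at least 5 CPM, 28 of 76 (36.8%) fell and 13 (17.1%) rose, with a median of -0.03. Among all genes 35.5% fell and 37% rose under that filter, so the share of members that fell was near the background. With the trend over exon length removed, the median was -0.22. Of the 36, 7 fell by at least 1.5-fold and 1 by at least 2-fold. The class medians were -0.23 for large subunit proteins of bacterial ancestry (17 of 30 lower), -0.11 for the mitochondria-specific ones (8 of 21), -0.22 for small subunit proteins of bacterial ancestry (8 of 16) and -0.03 for the specific ones (3 of 10).

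MRPL14 (chr6:44113454-44127457) fell most with GNF-7 at 24 h. It measured 49.8, 46.2 and 51.8 CPM in DMSO and 26.8, 23.6 and 22.7 CPM with GNF-7, a wide separation (log2 -1.01, SE 0.0599, edgeR adjusted p 5.28e-23; 2.02-fold lower). MRPL33 (chr2:27771717-27988087), a small protein near the tRNA exit site, went from 67.1, 65 and 69.8 CPM to 43.2, 36.4 and 38.3 CPM (log2 -0.78, SE 0.0546, edgeR adjusted p 1.44e-19). It shares exon sequence on the same strand with BABAM2, whose own value was -0.15 on the log2 scale. MRPL46 (chr15:88459476-88467419), a mitochondria-specific protein with few counts, went from 5.33, 5.4 and 6.04 CPM to 2.94, 3.09 and 3.82 CPM (log2 -0.76, SE 0.153, edgeR adjusted p 1.74e-05). Of its exon sequence, 11.3% is shared on the same strand with AC013489.1, which had 26 counts over the 15 libraries. In all 3 genes the treated libraries lay below every control. The other members lower by at least 1.5-fold, listed after their values were seen, were MRPL50, MRPS28, MRPS6 and MRPL12, between -0.63 and -0.60 on the log2 scale.

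Of the proteins named for their role, MRPL12 went from 22.5, 22.4 and 24.2 CPM to 14.2, 15.7 and 15.5 CPM at 24 h (log2 -0.60, SE 0.0766, edgeR adjusted p 5.27e-10), while its partner MRPL10 was not called (0.09, adjusted p 0.118). MRPS7 fell by 0.39, MRPS12 by 0.31, MRPL3 by 0.24, MRPS18C by 0.23, MRPS22 by 0.23 and MRPL41 by 0.17 on the log2 scale, each called by edgeR. Without DMSO 24 h replicate 3 the value of MRPL41 was -0.12, without the first GNF-7 24 h replicate it was -0.14, and in neither case was it called. With the filter at 5 CPM, MRPL41 (-0.07) and MRPS18C (-0.13) were not called. MRPL45, MRPS18A, MRPS18B and MRPS36 were not called, with log2 values of -0.06, -0.07, 0.00 and 0.00. MRPL11 and MRPL1, the largest falls of senescence, were at -0.01 and -0.05 and not called either.

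The 3 rises at 24 h were MRPL55, MRPS15 and MRPS25. MRPL55 (chr1:228106679-228109312), counterpart of bacterial L31, went from 13.7, 14.1 and 14.3 CPM to 16.8, 19.5 and 18.9 CPM (log2 0.39, SE 0.0856, edgeR adjusted p 8.26e-05). MRPS15 went from 34.7, 32.6 and 33.3 CPM to 39.1, 37.1 and 42 CPM (log2 0.23, edgeR adjusted p 0.000918). Both genes had fallen in senescence, by 0.32 and 0.64 on the log2 scale, and in both the treated libraries lay above every control. MRPS25 (chr3:15042460-15065335) was 0.14 higher (edgeR adjusted p 0.00786), a call lost without DMSO 24 h replicate 2 (log2 0.11) and without the filter (0.11). It shares exon sequence on the other strand with NR2C2, which was higher by 0.34, and whether counting used strand is not given in the sources used here.

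**Figure D4:**
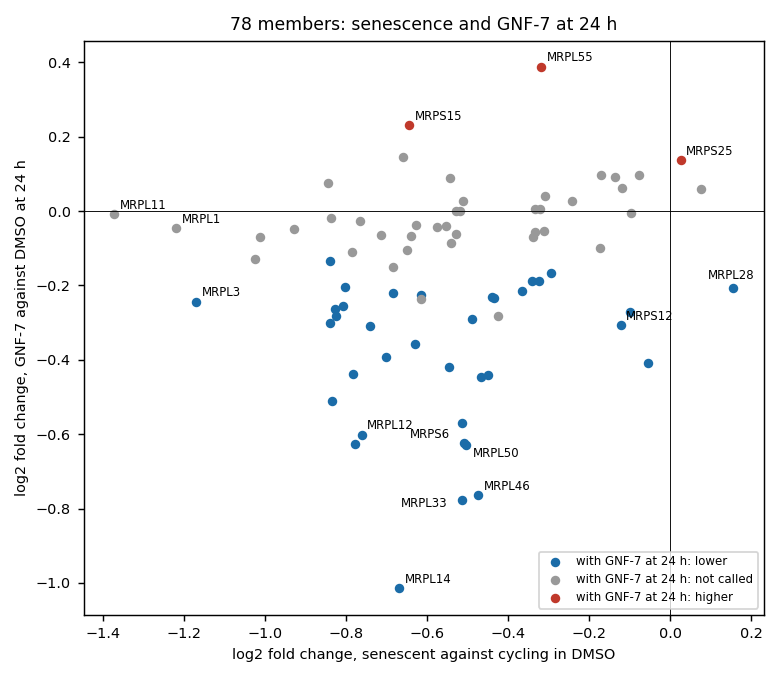
Each point is 1 of the 78 members, with its log2 fold change in senescence on the horizontal axis and with GNF-7 at 24 h on the vertical axis, coloured by the call at 24 h. Points in the lower left fell in both comparisons, MRPL11 and MRPL1 sit at the far left near 0 on the vertical axis, and MRPL14 is the lowest point.

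The comparisons of senescence and of GNF-7 at 24 h share no library. Of the 66 members lower in senescence, 32 (48.5%) were also lower with GNF-7 at 24 h, and these were 88.9% of the 36 lower at 24 h. Both shares are near those of all 78 members, 46.2% lower at 24 h and 84.6% lower in senescence. Over all genes tested, 51.9% of those lower in senescence were lower at 24 h, and these were 60.1% of the latter. A further 32 of the 66 were not called at 24 h, and MRPL55 and MRPS15 were higher. The 4 members lower at 24 h but not lower in senescence were MRPL27, MRPL28, MRPL36 and MRPS12. The GNF-7 comparisons at 6 h and 24 h also use separate libraries. Of the 20 members lower at 6 h, 18 (90%) were lower at 24 h, which is 18 of the 36 lower at 24 h, MRPL34 was not called at 24 h and MRPS25 was higher. Over all genes tested, 80.9% of those lower at 6 h were lower at 24 h, which is 58.4% of those lower at 24 h, and no difference of the members from this was tested. None of the 3 rises at 6 h was a rise at 24 h: MRPL1 was at -0.05, MRPL58 at 0.14 and MRPS10 at 0.03, with adjusted p from edgeR of 0.617, 0.0934 and 0.646.

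The difference between the GNF-7 effects at 24 h and at 6 h was tested as an interaction. By edgeR it was called lower in 18 members (23.1%) and higher in 3, against 18% and 12.8% of all genes, with a median of -0.08 (-0.00 over all genes). With only genes of at least 5 CPM, 16 members (21.1%) were lower, against 24.4% of all genes, and the median was -0.04. MRPL46 (-0.65, adjusted p 0.0147), MRPL14 (-0.52, adjusted p 1.07e-06), MRPL33 (-0.50, adjusted p 2.53e-07) and MRPL12 (-0.46, adjusted p 0.000526) were further below their control at 24 h than at 6 h. MRPS7, MRPS22 and MRPL3 followed at -0.21, -0.21 and -0.19. The MRPS7 call was lost on leaving out replicate 1 of either 6 h group (-0.16 for DMSO, -0.19 for GNF-7), replicate 2 of DMSO 24 h (-0.19) or replicate 3 of GNF-7 24 h (-0.20), without the filter (-0.21) and with the filter at 5 CPM (-0.16). On the other side stood MRPL55 (0.36, adjusted p 0.0188), MRPS25 (0.30, adjusted p 0.000123) and MRPL34 (0.25, adjusted p 0.0256). The MRPL55 call was lost on leaving out replicate 1 of GNF-7 at 6 h (0.27) or replicate 2 of GNF-7 at 24 h (0.31). That of MRPL34 was lost with DESeq2 (0.24) and on leaving out any of 5 libraries (0.20 to 0.24): replicate 3 of DMSO at 6 h, replicates 1 and 2 of GNF-7 at 6 h, replicate 2 of DMSO at 24 h and replicate 3 of GNF-7 at 24 h.

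Senescent cells in DMSO for 24 h were compared with those in DMSO for 6 h, as the change of the control over time; the libraries are the controls of the comparisons above. By edgeR 17 of 78 members (21.8%) rose and 2 fell, against 9.26% and 9.29% of all genes, with a median of 0.06 (0.01 over all genes). The values depended on scaling and length. With total counts, which moved the members' median by -0.11 and put that of all genes at -0.10, 2 members (2.56%) rose, 11 (14.1%) fell and the median was -0.05, while 3.38% of all genes rose and 23.7% fell. With the trend over exon length removed, the members' median was 0.0028. The number of rises was 11 without DMSO 6 h replicate 3 and 9 without DMSO 24 h replicate 3. MRPS6 (chr21:34073224-34143034), a small subunit protein, had the largest rise, from 26.4, 30.2 and 28.5 CPM to 44.5, 41.2 and 44.2 CPM (log2 0.61, SE 0.0661, edgeR adjusted p 8.8e-11). Every 24 h library lay above every 6 h one, and 2 of the 3 were above the range of cycling cells (36.2 to 43.2 CPM). The exons of MRPS6 overlap those of SLC5A3, a myo-inositol transporter gene, on the same strand. SLC5A3 was 0.26 higher with time and 2.17 lower with GNF-7 at 24 h on the log2 scale. The part of that overlap in the values of MRPS6 was not tested.

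MRPL23 rose by 0.42 (edgeR adjusted p 0.0204) and MRPL54 by 0.30 (adjusted p 0.00373). The MRPL23 call was lost without DMSO 6 h replicate 2 (0.41) or 3 (0.40) or DMSO 24 h replicate 2 (0.34), and with total counts both calls were lost (0.31 and 0.19). MRPL33 and MRPL14, the members most lowered by GNF-7 at 24 h, were among the rises in DMSO, at 0.28 and 0.20. The 2 falls were MRPS25 and MRPS30, both by 0.16. That of MRPS25 was lost without DMSO 6 h replicate 1 (-0.12) or DMSO 24 h replicate 2 (-0.13), and that of MRPS30 without any of 9 libraries (-0.18 to -0.10) and with voom (-0.16).

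Other gene families show where the mitochondrial ribosome stood. In senescence, 80 of 84 tested cytosolic ribosomal protein genes fell (median -0.44), as did 58 of 78 nuclear genes for respiratory chain subunits (median -0.27). The latter set includes ATP synthase subunits. Of 13 mitochondrially encoded protein genes, 10 rose (median 0.97). Over all genes tested, 34.4% fell and 35.6% rose in this comparison. With GNF-7 at 24 h the families parted at the main filter on low counts, the only one read for the other families. Respiratory chain subunits fell in 62 of 78 cases with 0 rises (median -0.27), and cytosolic ribosomal protein genes rose in 62 of 84 with 5 falls (median 0.14), beside 36 falls and 3 rises in the mitochondrial ribosome. Among all genes 29.7% fell and 29.3% rose. With the filter at 5 CPM, 28 of 76 mitochondrial ribosomal protein genes fell and 13 rose (median -0.03). Mitochondrially encoded genes rose in 6 of 13 cases and fell in 1 (median 0.25). At 6 h of GNF-7, 41 of 78 respiratory chain genes fell, and 13 of 84 cytosolic ribosomal protein genes rose and 2 fell. Among all genes 21.4% fell and 17.9% rose at 6 h. In DMSO over time, 66 of 84 cytosolic ribosomal protein genes and 30 of 78 respiratory chain genes rose (medians 0.15 and 0.12). Among all genes 9.26% rose. Total counts moved the median of the mitochondrial ribosomal protein genes by -0.11 in this comparison. The other families were not recomputed with that scaling. The differences between families were not tested.

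**Figure D5:**
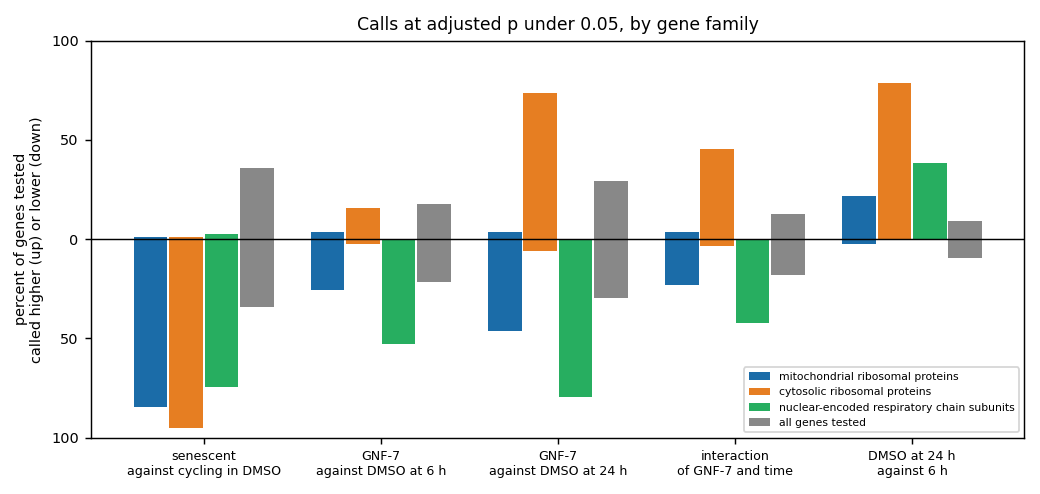
Bars give the percent of tested genes called higher (up) or lower (down) by edgeR in 5 comparisons for 4 sets of genes. In senescence all 3 families are mostly lower, and with GNF-7 at 24 h cytosolic ribosomal protein genes are mostly higher, respiratory chain genes mostly lower and mitochondrial ribosomal protein genes in between.

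The rest of the mitochondrial translation pathway was read in lists chosen by function. For all lists below, the background over all genes tested was 34.4% lower and 35.6% higher in senescence. With GNF-7 at 24 h it was 29.7% lower and 29.3% higher. The lists were not tested against it. The 5 ribosomal proteins that carry other names, DAP3, PTCD3, AURKAIP1, CHCHD1 and GADD45GIP1, all fell in senescence (median -0.56) and with GNF-7 at 24 h (median -0.16), CHCHD1 by 0.68 and 0.43 on the log2 scale. Of 35 genes for assembly of the particle and mitochondrial RNA processing, 27 fell and 3 rose in senescence. The smallest p-values were those of LRPPRC, which stabilises mitochondrial messengers (log2 -0.77, edgeR adjusted p 4.52e-27), and of the protease subunit AFG3L2 (-0.72). SPG7, the partner subunit of AFG3L2, was among the rises at 0.77. With GNF-7 at 24 h 15 of the 35 fell and 4 rose, and the smallest p-value was that of the tRNA-end nuclease ELAC2 (-0.79, edgeR adjusted p 1.54e-25). The RNA helicase DHX30 fell by 0.43 at 6 h and 0.40 at 24 h.

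Of 23 translation factors and tRNA modifiers, 17 fell and 0 rose in senescence, among them the elongation factors TUFM (log2 -0.57) and GFM1 (-0.55). At 24 h of GNF-7 the list was split, with 9 higher (39.1%) and 6 lower (26.1%), against 29.3% and 29.7% of all genes. GFM1 fell by 0.67 and TUFM by 0.38, while the initiation factor MTIF2 rose by 0.46 and the tRNA modifier MTO1 by 0.62. Of 17 mitochondrial aminoacyl-tRNA synthetases, which charge the tRNAs for this ribosome, 11 fell and 1 rose in senescence and again 11 fell and 1 rose with GNF-7 at 24 h, where the median was -0.42. CARS2 rose by 0.43 at 24 h after a rise of 0.44 in senescence.

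Among 5 mitochondrial transcription genes, TFAM, which packages mitochondrial DNA, and TFB2M fell in senescence by 1.33 and 0.77 on the log2 scale, and POLRMT, the polymerase that MRPL12 binds, was at 0.08 (edgeR adjusted p 0.112). With GNF-7 at 24 h TFB2M, TFAM and POLRMT fell by 0.61, 0.36 and 0.32. All 10 mitochondrial chaperone and protease genes of the list fell in senescence, HSPD1 by 1.19 and LONP1 by 1.17. GNF-7 raised 3 of the 10 at 24 h and lowered 6: LONP1 was 1.33 higher (edgeR adjusted p 5.85e-37), HSPA9 1.03 higher and DNAJA3 0.33 higher, while CLPX and the HSPD1 partner HSPE1 fell by 0.41 each. The same 3 genes rose at 6 h, by 0.78, 0.64 and 0.32.

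Of 11 regulators of mitochondrial gene expression, 9 fell and 2 rose in senescence. Among them, MYC fell by 0.93, YY1 by 0.82, GABPB1 by 0.76, NRF1 by 0.72, HCFC1 by 0.67, PPRC1 by 0.60 and GABPA by 0.40, and PPARGC1A and ESRRA were higher by 1.38 and 0.27 on the log2 scale, all called by edgeR. With GNF-7 at 24 h HCFC1, PPRC1, MYC, YY1 and GABPB1 fell again, by 0.54, 0.57, 0.35, 0.31 and 0.21, and NRF1, ESRRA, MAX and PPARGC1A were higher by 0.22, 0.18, 0.37 and 0.64. At 6 h NRF1 had been lower by 0.44. The level of these transcripts was not linked to the members by any test. Among members with a window, CCGGAAG was found in 13 of the 32 that fell with GNF-7 at 24 h and in 16 of the 37 that did not, and AAGATGGC in 11 of 32 and 9 of 37.

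Members are spread over 21 chromosomes and often start head to head with another gene. Within 1000 bases, 29 of 78 (37.2%) had a protein-coding neighbour on the opposite strand that starts in the other direction, against 17.1% of the 13512 coding genes tested. MRPL46 and MRPS11 form such a pair, with starts 34 bases apart in GENCODE 29, both inside the MRPL46 window above. The RefSeq window of MRPS11, chr15:88467458-88467757, places the MRPS11 start outside that window. In senescence MRPL46 and MRPS11 fell by 0.47 and 0.49 on the log2 scale, and with GNF-7 at 24 h by 0.76 and 0.29. MRPS12 faces SARS2, the mitochondrial seryl-tRNA synthetase, and neither was called in senescence (-0.12 and -0.08), while both fell with GNF-7 at 24 h (0.31 and 0.49 on the log2 scale). The exons of MRPS12 and SARS2 overlap by 349 bases on opposite strands, and the part of this in their values was not tested. MRPL36 faces NDUFS6, a complex I gene, and here the pair parted in senescence, at -0.10 (not called) and -0.58.

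MRPL47 with NDUFB5, MRPL43 with TWNK, the mitochondrial DNA helicase, and MRPL49 with FAU, which encodes a cytosolic ribosomal protein, are further pairs. The partners NDUFB5, TWNK and FAU fell in senescence by 0.34, 0.35 and 0.44 on the log2 scale. With GNF-7 at 24 h, MRPL49 was called lower (-0.19) and FAU was not called (-0.0019). MRPL43 was not called (-0.10) and TWNK was called lower (-0.18), while MRPL47 and NDUFB5 were both called lower (-0.23 and -0.12). Values are given for only some of the pairs. Exons of MRPL43 and TWNK overlap by 149 bases and those of MRPL49 and FAU by 282, on opposite strands. Exon overlap with another gene was found for 41 of the 78 members, 16 of them on the same strand. Across the 78 genes, the log2 fold changes were only weakly related to exon length, GC content or mean level: Pearson's r in senescence was 0.01, 0.23 and -0.17 and with GNF-7 at 24 h -0.02, 0.21 and 0.01, as a description over genes of the same libraries, which are not independent replicates.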

How the data were processed

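RNA from 15 HT-1080 libraries was measured as read counts per gene. The authors deposited 1 table of raw counts per Ensembl gene, without normalization. Per the submitters' processing notes, reads were handled with bcl2fastq 2.20.0.422, STAR 2.7.9a and featureCounts 1.5.1 on GRCh38. The annotation release and the strand setting of counting are not given in the sources used here, and the library kit was stranded per the labels' protocols. Of 60673 rows, 3 that hold 1 entry broken over lines were left out.

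Counts were tested with edgeR 4.0.16 (R 4.3.3) by its robust quasi-likelihood test after filterByExpr, which kept 18563 genes, with TMM scaling and 1 fit over all 15 libraries with a term per group. Benjamini-Hochberg adjustment ran over all genes tested, with calls at adjusted p under 0.05. CPM are TMM-scaled. Each SE was derived from the F statistic (absolute log2 fold change over root F), and each SD covers the 3 libraries in a group. On simulated counts of 17523 genes for GNF-7 against DMSO at 24 h, 188 of 200 genes changed 2-fold were recovered (94%), with 7 false calls. All other genes were left unchanged there, and recovery of changes under 2-fold, as in most members, was not tested.

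Members and lists were chosen with earlier results of these data known. Members named in each comparison were the 3 largest rises and 3 largest falls among those called with a mean of at least 5 CPM, and 12 chosen for their role. In the other lists, names beyond the 2 smallest p-values were chosen after their values were seen. Symbols came from a name table, and biotypes, exons and coordinates from GENCODE 29. In GNF-7 against DMSO at 24 h, libraries of the same replicate number deviated together (r = 0.154, 0.12 and 0.11 across genes). This comes from the numbers in the labels, which name no shared batch or day, and it did not hold for each pair in the other comparisons. Alternatives were RLE size factors, total counts, scaling without mitochondrially encoded genes, no filter, a filter at 5 CPM, DESeq2 1.42.0, limma 3.58.1 voom, only the groups compared, a replicate block, removal of a trend with exon length, and leaving out each library. Removal of a trend with GC content and leaving out members with a same-strand overlap were chosen after seeing the data. The labels call the libraries biological replicates but do not say how they were separated, so p-values measure only the spread between these libraries.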

Additional observations from a re-analysis of the deposited data

Results flagged for a closer look

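The effect of GNF-7 at 24 h differed from that at 6 h by the interaction term in 21 members. By direction, 23.1% of members were called lower and 3.85% higher, against 18% and 12.8% of all genes tested. The 10 members named for this comparison are given here. The difference was 0.36 for MRPL55, 0.30 for MRPS25 and 0.25 for MRPL34 on the log2 scale. It was -0.65 for MRPL46, -0.52 for MRPL14, -0.50 for MRPL33 and -0.46 for MRPL12, and -0.21 for MRPS22, -0.21 for MRPS7 and -0.19 for MRPL3. Each value is the difference of 2 log2 fold changes, each over 3 libraries against 3, with an adjusted p under 0.05 by edgeR.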

How the results depend on the processing

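On leaving out each library, senescence had 1 rise, 66 to 68 falls and a median of -0.57 to -0.54. The number of rises was 2 with total counts, 2 with the 5 CPM filter and 0 without overlapping members, and the median was -0.40, -0.39, -0.48 (only the groups compared), -0.67 (length trend removed) and -0.57 (GC trend removed). MRPL10 had 0.0138 with the 5 CPM filter. With GNF-7 at 6 h there were 6 rises with the 5 CPM filter and 1 to 4 on leaving out each library. At 24 h there were 6 with total counts and 13 with the 5 CPM filter, with a median of -0.032 there and -0.22 without the length trend. The interaction was higher in 5 members with the 5 CPM filter. In DMSO over time, total counts gave 2 rises, 11 falls and a median of -0.0539, no filter gave 11 rises, voom gave 1 fall, the length trend removed gave a median of 0.0028, and leaving out each library gave 9 to 19 rises and 0 to 2 falls. Shares without mitochondrially encoded counts were 0.47%, 0.376%, 0.369%, 0.387% and 0.38%. Where no construction shows it, the cause was not tested. With the replicate block, 66, 20, 37, 20 and 18 members were called in the main direction of the 5 comparisons (66, 20, 36, 18 and 17 without it), so the block moved no count by over 1.5 times.

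Unadjusted p-values were under 0.05 in 69, 25, 42, 28 and 27 members. The shares of all genes at this unadjusted threshold are not given here, so these counts have no background beside them. Depth limits MRPL53 and MRPS24 most, at means of 0.425 and 1.85 CPM, and a call that misses the threshold does not show that a member did not change. A count of 0 allows up to 3 counts, for counting error only. Overlapping genes and unknown strand counting limit 41 members.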
